A study of Mus musculus with 6 samples.

Results

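The genes described here encode the ligands and receptors of the 4 classic guidance systems: semaphorins with their plexin and neuropilin receptors, ephrins with their Eph receptors, Slits with Robo receptors, and netrins with Unc5 receptors. They were taken by symbol from a table of 22905 gene symbols. The symbols were semaphorins of classes 3 to 7, plexins A to D, Nrp1 and Nrp2, Eph receptors A and B, ephrins A and B, Robo, Slit and netrin genes with a number, and Unc5a to Unc5d. This gave 65 genes, 35 for ligands and 30 for receptors, of which 51 (27 ligands, 24 receptors) had enough reads to be tested among 14439 genes.

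Guidance proteins were first known for steering growing axons, and the same pairs act on blood vessels, immune cells and fibroblasts. Plexins bind semaphorins and act on small GTPases and integrin adhesion, and class 3 semaphorins mostly need a neuropilin as co-receptor. Ephrins are held in the membrane, so that Eph receptors, a family of receptor tyrosine kinases, signal between touching cells. In liver, neuropilin-1 is known from sinusoidal endothelial cells and from hepatic stellate cells, the vitamin A storing pericytes of the sinusoid that become scar-forming myofibroblasts after injury.

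RNA-seq was made from primary hepatic stellate cells isolated from mice of genotype BucheKI/KI-Hep, all of which received carbon tetrachloride (CCl4), a hepatotoxin used to model liver fibrosis. The 2 groups, 3 libraries each, are labelled PBS and DOX, and the series describes overexpression of BUCHE in hepatocytes. The labels do not spell out the time, the age of the mice or the promoter of the knock-in, and whether each library is 1 animal is not stated. P-values therefore measure the spread between these libraries, which may be technical. Libraries of mice given DOX without the knock-in, or without CCl4, were not analysed here, so an effect of DOX itself and one of the introduced gene cannot be told apart.

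Bche, the butyrylcholinesterase gene that the label BUCHE is taken to mean, was at 0.212, 0.680 and 0.354 CPM (counts scaled to a common library size by TMM factors) in PBS replicates 1 to 3 and at 35.9, 16.4 and 99.3 CPM in DOX. The groups did not overlap (log2 fold change 6.91, edgeR adjusted p = 0.0206). Libraries held 36220282 to 37707364 counts. Among cell markers, all 20 stellate genes were detected, at uneven levels: Lrat, the retinol esterifying enzyme, was at 0.222 to 0.693 FPKM (fragments scaled to gene length and library total), Des, desmin, at 2.48 to 6.28 FPKM and Dcn, the matrix proteoglycan decorin, at 177 to 383 FPKM. The endothelial cadherin gene Cdh5 was at 499.5 to 719 FPKM, and the macrophage receptor gene Csf1r at 56.3 to 187 FPKM. The summed level of 20 endothelial markers was 7644 to 9202 CPM in PBS and 6677 to 8079 CPM in DOX, and that of 20 stellate markers 1124 to 2600 CPM and 1293 to 2023 CPM. Markers of macrophages differed more, with 20 genes summing to 4637 to 7042 CPM in PBS and 8631 to 15710 CPM in DOX. The 15 hepatocyte markers summed to 308.8 to 601.8 CPM and 511 to 4254 CPM, and were highest in DOX replicate 3, the library with the most Bche. The libraries thus hold RNA of several liver cell types, and in bulk RNA fewer cells of a type and less RNA per cell cannot be told apart.

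Between DOX and PBS, 4 of the 51 tested guidance genes passed the edgeR test at an adjusted p of 0.05. Nrp1 and Ephb4, both receptors, fell, and the receptor gene Plxnb2 and the ligand gene Sema7a rose. The share called, 7.84%, was near the 6.41% of all tested genes. By direction the background was 2.04% of genes lower and 4.38% higher in DOX. The median log2 fold change of the guidance genes was -0.29, beside -0.01 over all genes, and 35 of 51 values were negative, beside 7417 of 14439.

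**Figure D1:**
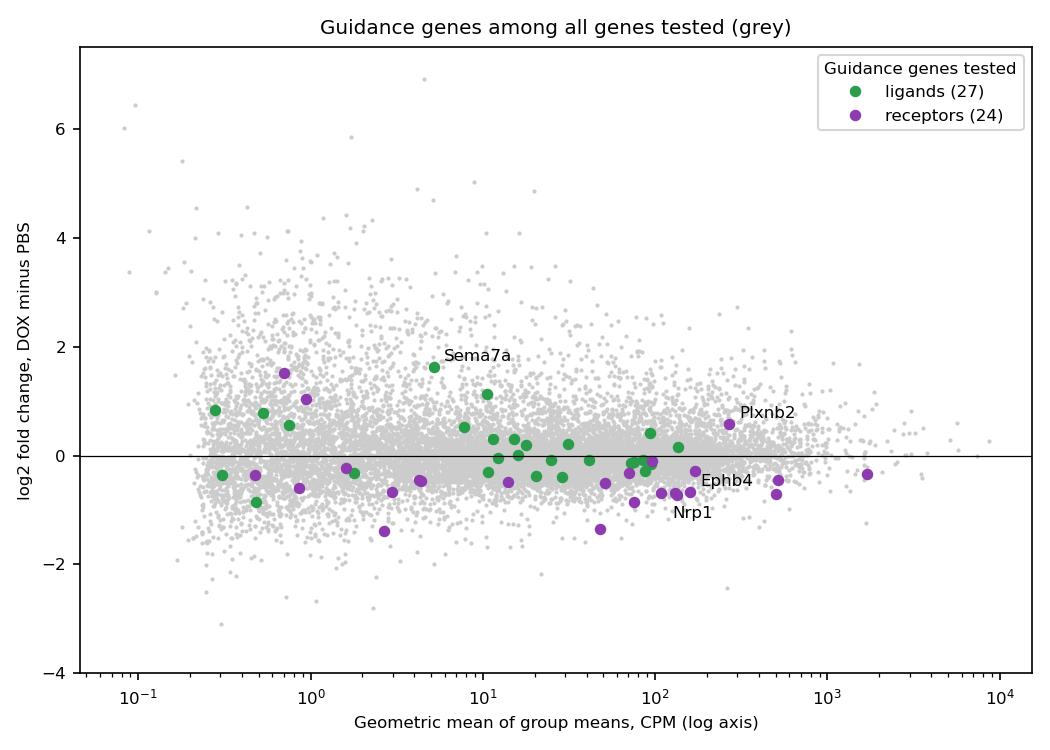
Log2 fold change (DOX minus PBS) against level (geometric mean of the group means in CPM, log axis) for all 14439 tested genes in grey, 27 ligand genes in green and 24 receptor genes in purple. The named genes passed an edgeR adjusted p of 0.05, and 21 of the 24 receptors lie below 0.

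By role, 21 of 24 receptor log2 fold changes were negative with a median of -0.47, and 14 of 27 ligand values were negative with a median of -0.05. The count of 21 negative receptors was the same when libraries were scaled by TMM, RLE or upper-quartile factors or by their totals alone. By totals alone the median of all genes was -0.14. At an unadjusted p under 0.05 in edgeR, 13 guidance genes (25.5%) were lower in DOX, beside 12.7% of all genes, and 4 (7.84%) were higher, beside 15.9%. The 3 libraries of one group lay entirely below those of the other, lower in DOX, for 13 genes (25.5%, all genes 17.7%) and, higher in DOX, for 5 genes (9.80%, all genes 16.9%). Of the 13 lower at that p, 11 were receptors. DESeq2 called 14 of the 49 guidance genes it tested, 3 higher and 11 lower. Of all 13597 genes it tested, it called 1677 higher and 1015 lower (19.8% in either direction). Limma-voom called the same 4 guidance genes as edgeR (5.97% of all genes).

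Nrp1, neuropilin-1, a co-receptor for class 3 semaphorins and for VEGF-A, stood at 139, 137.5 and 137.7 CPM in PBS and at 78.5, 79.98 and 99.0 CPM in DOX. The PBS libraries were nearly equal and all above the DOX libraries. The mean went from 138 ± 0.874 to 85.8 ± 11.4 CPM (SD, n = 3 each), 1.61-fold lower (log2 fold change -0.69 with SE 0.11, adjusted p = 0.0265 by edgeR). Leaving out 1 library at a time, its log2 fold change ran from -0.80 to -0.62 and its adjusted p from 0.0126 to 0.0902.

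Ephb4, the Eph receptor of veins and a partner of ephrin-B2, was at 198.6, 184 and 223 CPM in PBS and at 118.5, 109 and 153 CPM in DOX. Every DOX library was below every PBS library. Mean levels were 202 ± 19.7 and 127 ± 22.9 CPM (SD, n = 3 each), a 1.59-fold fall (log2 fold change -0.67 with SE 0.15, adjusted p = 0.0450 by edgeR).

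Plxnb2, plexin-B2, a receptor for class 4 semaphorins, was at 214, 241 and 209 CPM in PBS and at 375, 304 and 309 CPM in DOX. The groups did not overlap, and DOX replicate 1 was the highest. It rose 1.49-fold, from 221 ± 17.2 to 329 ± 39.9 CPM (SD, n = 3 each; log2 fold change 0.57 with SE 0.12, adjusted p = 0.0398 by edgeR). With libraries scaled by their totals alone it did not pass the test.

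Sema7a, a lipid-anchored semaphorin that binds plexin-C1 and integrins, had low counts, at 2.97, 1.70 and 4.19 CPM in PBS and at 10.45, 10.5 and 6.44 CPM in DOX. The lowest DOX library, replicate 3, was still above the highest PBS library. The difference was 3.08-fold, from 2.95 ± 1.25 to 9.12 ± 2.32 CPM (SD, n = 3 each; log2 fold change 1.62 with SE 0.36, adjusted p = 0.0470 by edgeR).

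These calls depended on single libraries. No guidance gene passed the edgeR test without PBS replicate 2, without PBS replicate 3 or without DOX replicate 1, where 14 to 16 had an unadjusted p under 0.05 in that test. Over all genes the same fits called, in that order, 0 of 14782, 0 of 14787 and 85 of 14736. At an unadjusted p under 0.05 they had 3294, 3092 and 3058 genes. Without PBS replicate 1 the 3 genes called were Nrp1, Sema4d and Sema4a, and without DOX replicate 2 they were Plxna2, Plxna4 and Robo1. Without DOX replicate 3 all 4 remained, joined by Epha2 and Robo4. None of the 4 changed sign in these fits, and Ephb4 ran from -0.83 to -0.58, Plxnb2 from 0.47 to 0.64 and Sema7a from 1.35 to 1.96 on the log2 scale. Macrophage markers, all 19 tested of which had positive log2 fold changes (5 called), had the direction of Plxnb2 and Sema7a. DOX replicate 1, the highest in Plxnb2, also had the most macrophage marker RNA, 15710 CPM. Plxnb2 had the same order as the macrophage sum over all 6 libraries. It was at 214, 241 and 209 CPM in PBS replicates 1 to 3, where the sums were 4883, 7042 and 4637 CPM. In DOX it was at 375, 304 and 309 CPM, beside sums of 15710, 8631 and 9860 CPM. Sema7a did not follow that order. It was at 10.45 and 10.5 CPM in DOX replicates 1 and 2, whose macrophage sums were 15710 and 8631 CPM. Within PBS it was lowest in replicate 2, at 1.70 CPM, where the macrophage sum was highest, 7042 CPM. Neutrophil, lymphocyte and cholangiocyte markers also had higher sums in every DOX library. The 7 neutrophil markers summed to 27.3 to 59.5 CPM in PBS and 112 to 153 CPM in DOX (5 of 5 tested positive, 3 called). The 11 lymphocyte markers summed to 2.15 to 5.51 CPM and 6.73 to 16.4 CPM (8 of 8 positive, 1 called), and the 8 cholangiocyte markers to 19.6 to 62.9 CPM and 80.3 to 119.5 CPM (7 of 7 positive, 1 called). All 14 tested hepatocyte markers were positive, and edgeR called none (13 at an unadjusted p under 0.05, 9 called by DESeq2). Beside these marker counts, edgeR called 4.38% of all tested genes higher and had 15.9% higher at an unadjusted p under 0.05. DESeq2 called 19.8% in either direction. Of 20 endothelial markers 15 were negative, the direction of Nrp1 and Ephb4, and 5 were positive. EdgeR called 1, Tek, the angiopoietin receptor gene (5% of the markers, beside 6.41% of all genes). At an unadjusted p under 0.05 in edgeR, 5 were lower in DOX (25%, all genes 12.7%) and 2 higher (10%, all genes 15.9%). Without overlap between groups, 7 were lower (35%, all genes 17.7%) and 2 higher (10%, all genes 16.9%). DESeq2 called 7 of the 20, 2 higher and 5 lower. Among the DOX libraries, replicate 3 had the lowest endothelial sum, 6677 CPM, and the highest Nrp1 and Ephb4, at 99.0 and 153 CPM. The part of cell makeup in these results was not tested.

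**Figure D2:**
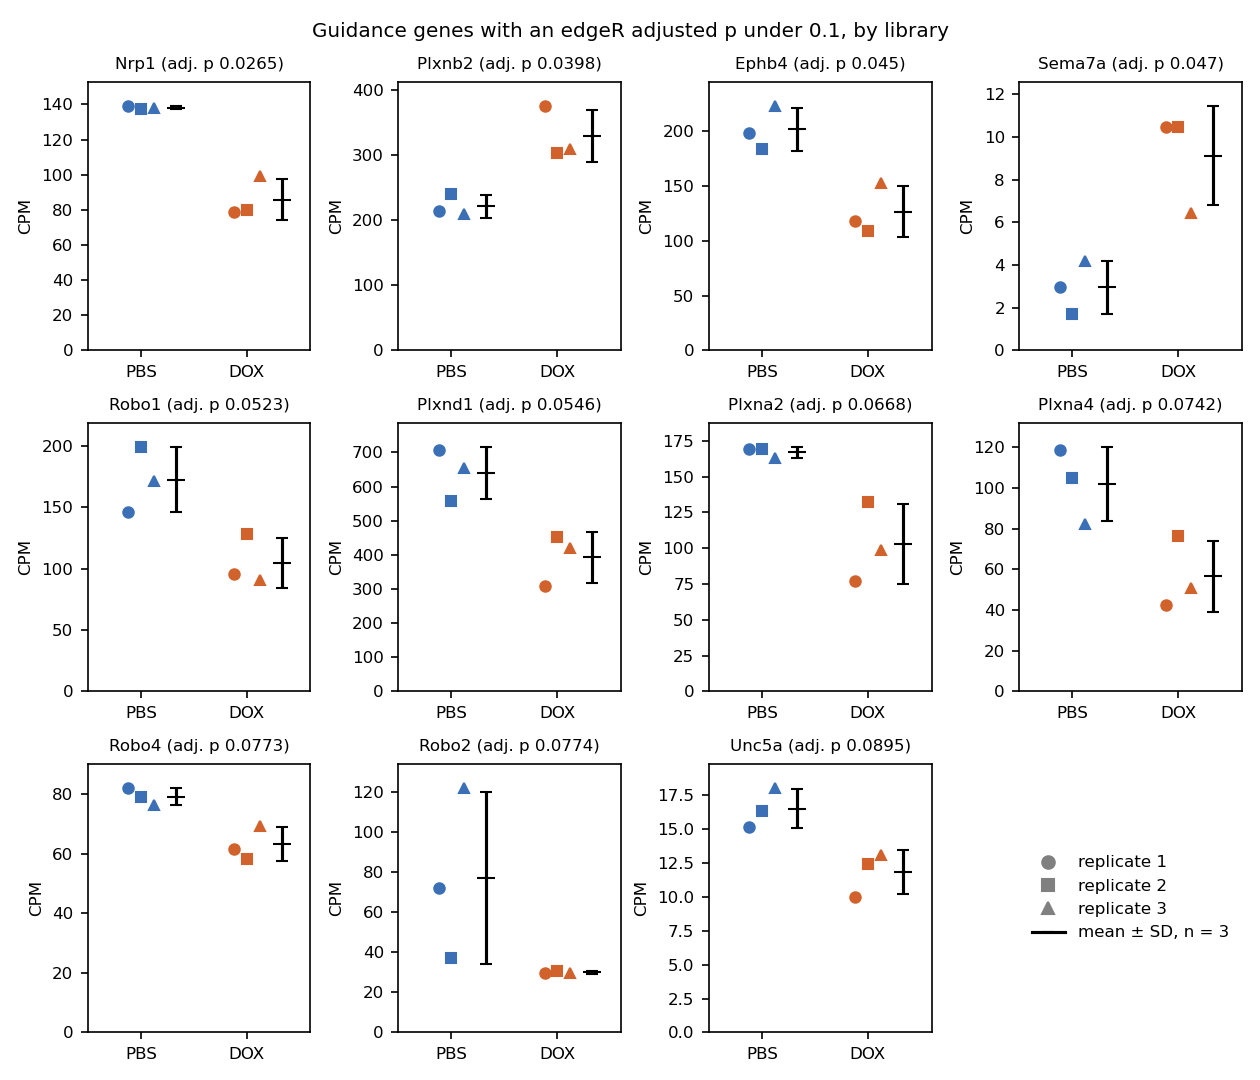
CPM in each library for the 11 guidance genes with an edgeR adjusted p under 0.1, with marker shapes for replicates 1 to 3 and bars for mean ± SD (n = 3). In all 11 panels the PBS and DOX libraries do not overlap, with Plxnb2 and Sema7a higher in DOX and the other 9 lower. The panels were chosen by the p from these same libraries, which favours genes without overlap. Of all tested genes, 17.7% were lower and 16.9% higher in DOX without overlap.

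The bases before an annotated transcript start of each of these 4 genes are shown because these genes passed the test. Sequences are RefSeq, build GRCm38.p6, 250 bases before an annotated transcript start, read 5′ to 3′ on the gene's strand: Nrp1 at chr8:128358823-128359072 (plus), Ephb4 at chr5:137349859-137350108 (plus), Plxnb2 at chr15:89180789-89181038 (minus, the more upstream of 2 windows) and Sema7a at chr9:57939862-57940111 (plus). Capitals mark each GC box, GGGCGG or its reverse complement CCGCCC, the motif bound by Sp1-type factors.
Nrp1: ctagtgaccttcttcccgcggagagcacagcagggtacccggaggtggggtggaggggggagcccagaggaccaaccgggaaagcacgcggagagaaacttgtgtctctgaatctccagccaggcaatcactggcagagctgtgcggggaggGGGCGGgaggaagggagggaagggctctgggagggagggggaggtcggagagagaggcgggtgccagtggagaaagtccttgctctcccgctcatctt
Ephb4: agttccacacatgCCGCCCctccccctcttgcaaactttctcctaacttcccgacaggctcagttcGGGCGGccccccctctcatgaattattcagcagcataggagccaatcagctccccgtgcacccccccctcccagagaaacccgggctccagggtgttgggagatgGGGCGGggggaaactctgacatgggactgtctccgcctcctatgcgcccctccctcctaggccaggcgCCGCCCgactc
Plxnb2: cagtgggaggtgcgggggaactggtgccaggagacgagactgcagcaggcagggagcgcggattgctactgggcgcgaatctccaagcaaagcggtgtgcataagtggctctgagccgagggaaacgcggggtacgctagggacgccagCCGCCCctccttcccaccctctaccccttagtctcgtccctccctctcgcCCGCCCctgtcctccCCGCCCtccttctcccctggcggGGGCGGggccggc
Sema7a: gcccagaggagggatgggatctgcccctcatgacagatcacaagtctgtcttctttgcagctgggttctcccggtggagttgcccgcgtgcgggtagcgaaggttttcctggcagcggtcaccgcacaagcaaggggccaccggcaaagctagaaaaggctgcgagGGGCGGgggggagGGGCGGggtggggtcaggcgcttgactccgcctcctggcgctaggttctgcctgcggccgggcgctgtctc

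The Ephb4 and Plxnb2 windows hold 4 GC boxes each, the Sema7a window 2 and the Nrp1 window 1, so genes that rose and genes that fell both carried the motif. No annotated exon of the GENCODE M21 annotation lies in these windows, and for Nrp1, Sema7a and Plxnb2 the annotated gene begins further upstream. The GC box was in 71.7% of 60 windows of 45 tested guidance genes and in 54.0% of 14375 windows of all tested genes. Median GC content was 64.4% and 59.2% in the same sets. The E-box, CANNTG, was in 43.3% and 58.7%, and the ETS core, CCGGAA or TTCCGG, in 11.7% and 20.0%. The comparison set was narrowed to tested genes after shares over all annotated windows had been seen, and a match is a description of letters, not a bound site.

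Of 9 plexin genes 8 were tested, and 7 of those had negative values, with Plxnb2 the exception. Plxnd1, the receptor of Sema3e that acts in vessel patterning, was at 708, 557 and 653 CPM in PBS and at 309, 451 and 420.3 CPM in DOX. The groups did not overlap, and the difference missed the threshold (log2 fold change -0.70 with SE 0.17, adjusted p = 0.0546 by edgeR and 0.00295 by DESeq2).

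The class A plexins work with neuropilins. Plxna2 was at 169, 169 and 163 CPM in PBS and at 77.35, 132.5 and 99.05 CPM in DOX (log2 fold change -0.70, edgeR adjusted p = 0.0668). Plxna4 was at 118, 105 and 82.3 CPM against 42.7, 76.3 and 50.7 CPM (-0.85, edgeR adjusted p = 0.0742). Plxna1, more abundant, was at 679.5, 587 and 550.1 CPM against 387, 528 and 417 CPM (-0.45, edgeR adjusted p = 0.107, DESeq2 adjusted p = 0.0488). In each of these 3 genes DOX replicate 2 was the highest DOX library and replicate 1 the lowest, and no DOX library reached a PBS library.

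Plxnc1, the Sema7a receptor, was at 91.1 to 109.5 CPM in PBS and at 84.6 to 109.3 CPM in DOX, which overlapped (-0.10, 95% interval -0.40 to 0.20). Plxnb1 and Plxna3 were low, with means of 0.384 and 0.116 FPKM, and Plxnb3 was not tested.

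The shares of single plexins in the family are given per length. On the FPKM scale Plxnd1 made up 41.8 ± 3.03% of summed plexin FPKM in PBS and 32.5 ± 4.25% in DOX, and Plxnb2 14.2 ± 1.81% and 27.0 ± 5.30% (SD, n = 3). The ratio of Plxnb2 to Plxnd1 FPKM was 0.294, 0.423 and 0.312 in PBS and 1.19, 0.657 and 0.718 in DOX, with no overlap. In DOX replicate 1, Plxnb2 exceeded Plxnd1. This ratio does not depend on the scaling of libraries, and it was formed after the values were seen, so it has no test. Summed plexin FPKM was 236 ± 11.5 in PBS and 171 ± 16.3 in DOX.

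Nrp2, neuropilin-2, co-receptor of Sema3f and of VEGF-C, was the most abundant guidance gene, at a mean of 213 FPKM. It stood at 2009, 2068 and 1686 CPM in PBS and at 1345, 1815 and 1383 CPM in DOX, and DOX replicate 2 lay within the PBS range. Its log2 fold change of -0.34 did not pass the test (95% interval -0.72 to 0.04, edgeR adjusted p = 0.212). It made up 94.3 ± 0.6003% of neuropilin FPKM in PBS and 95.4 ± 1.05% in DOX, so Nrp1, which passed the test, was the minor neuropilin of these libraries. Both had negative values, and a difference between their fold changes was not tested.

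**Figure D3:**
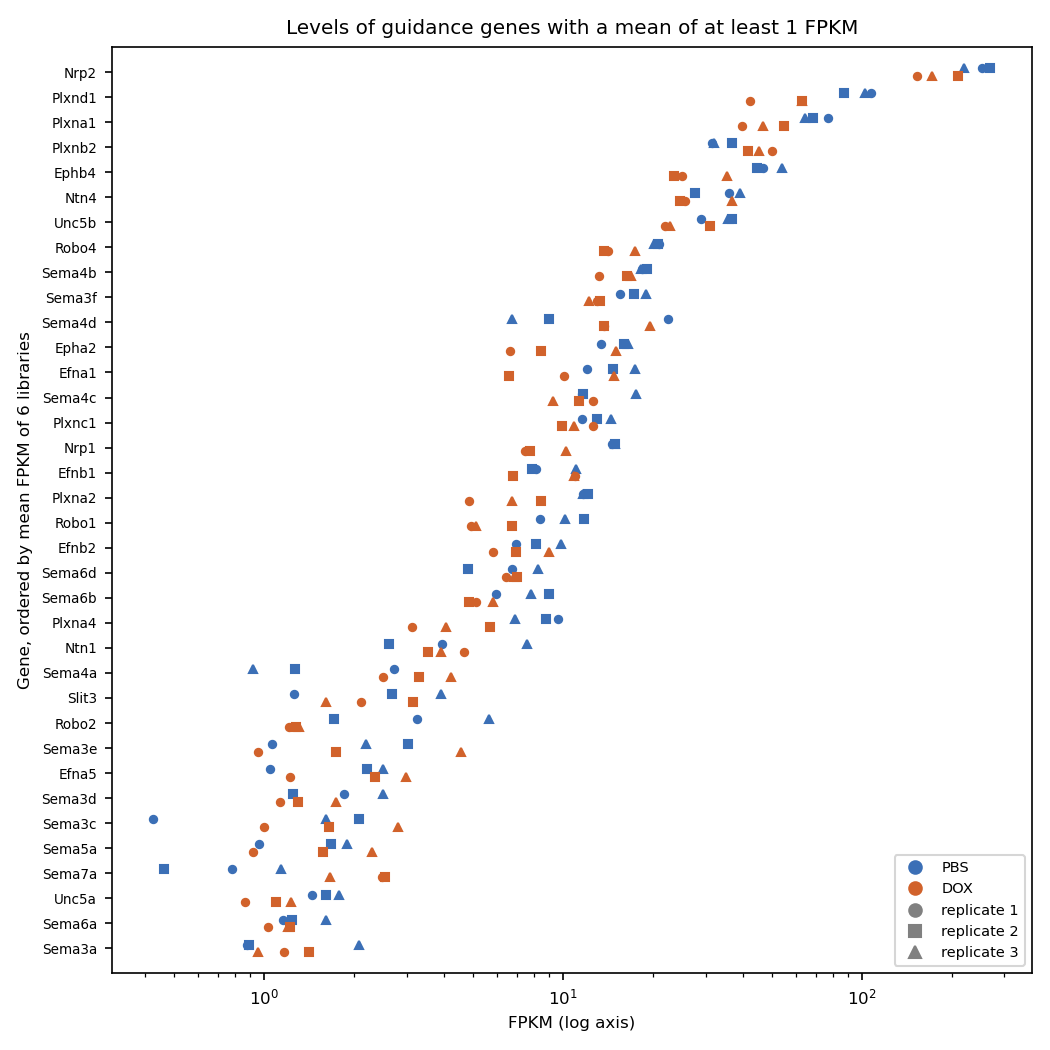
FPKM (log axis) in each library for the 36 guidance genes with a mean of at least 1 FPKM, ordered by mean, PBS in blue and DOX in orange. Nrp2 (mean 213 FPKM) stands above Plxnd1 (77.5), Plxna1 (58.5), Plxnb2 (39.5) and Ephb4 (38.2), and for Plxnd1 and Ephb4 every DOX point lies left of every PBS point.

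All 3 tested Robo genes, the Slit receptors, had negative values without overlap between groups, and none passed the edgeR test. Of all tested genes 17.7% were likewise lower in DOX without overlap. Robo1 was at 146, 199 and 171.5 CPM in PBS and at 95.4, 128 and 90.8 CPM in DOX (log2 fold change -0.72 with SE 0.17, adjusted p = 0.0523 by edgeR). Robo4, the endothelial Robo, was at 82.0, 78.8 and 76.5 CPM and at 61.6, 58.3 and 69.4 CPM (-0.33, SE 0.09, edgeR adjusted p = 0.0773). Robo4 had the smallest fold change of the 3.

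Robo2 was spread widely within PBS, at 72.1, 36.9 and 122 CPM, against 29.8, 30.9 and 29.5 CPM in DOX (-1.36, SE 0.38, edgeR adjusted p = 0.0774). Without PBS replicate 3, its highest library, the log2 fold change was -0.86. That library also had the highest summed stellate markers, 2600 CPM against 1124 and 1202 CPM in the other PBS libraries, and the part of this in the result was not tested. Summed Robo FPKM was 34.2 ± 1.73 in PBS and 21.9 ± 1.80 in DOX (SD, n = 3). Robo3 was detected in 1 library and was not tested.

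Unc5b, a netrin receptor known in endothelium, was at 166, 205 and 198 CPM in PBS and at 139, 193 and 132 CPM in DOX, with DOX replicate 2 inside the PBS range (log2 fold change -0.29, edgeR adjusted p = 0.283). Unc5a was lower in abundance, at 15.2, 16.3 and 18.0 CPM in PBS and at 9.98, 12.4 and 13.1 CPM in DOX. Its groups did not overlap, and edgeR gave an adjusted p of 0.0895 and DESeq2 one of 0.02999 (log2 fold change -0.48). Unc5a shares 0.816% of its exonic bases with Hk3. Unc5c and Unc5d were near 0 and not tested.

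Eph receptors were dominated by Ephb4, which held 72.9 ± 1.59% of Eph FPKM in PBS and 70.5 ± 4.66% in DOX. Epha2, the next, was at 54.6, 63.1 and 65.2 CPM in PBS and at 30.03, 37.3 and 62.2 CPM in DOX. DOX replicate 3 lay within the PBS range, and the gene did not pass the test (log2 fold change -0.50, edgeR adjusted p = 0.248). Of 9 tested Eph receptors 7 had negative values and 1, Ephb4, was called.

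Epha3 was scarce and uneven, at 4.35, 1.70 and 6.87 CPM in PBS and at 1.46, 1.97 and 1.53 CPM in DOX. Its PBS replicate 2 lay within the DOX range, and edgeR gave an adjusted p of 0.119 where DESeq2 gave 0.0392 (log2 fold change -1.38). Epha4, Epha7, Ephb2 and Ephb3 also had negative values that did not pass, between -0.67 and -0.23. Ephb1 and Ephb6, the latter lacking kinase activity, had positive values of 1.51 and 1.03 at under 3 CPM in every library (edgeR adjusted p = 0.131 and 0.227). Epha1 and Epha8 were not tested.

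The ephrins that Eph receptors bind showed no call. Efnb2, the ligand of Ephb4, was at 74.3, 84.2 and 102 CPM in PBS and at 69.2, 80.9 and 97.0 CPM in DOX, nearly the same range (log2 fold change -0.08, 95% interval -0.46 to 0.30). The Ephb4 to Efnb2 ratio of FPKM was therefore 6.69, 5.47 and 5.48 in PBS and 4.29, 3.37 and 3.94 in DOX, without overlap. This ratio too was formed with the values known and has no test. Efna1, a ligand of Epha2, was at 19.4, 22.8 and 27.0 CPM and at 18.0, 11.5 and 24.1 CPM (-0.37, edgeR adjusted p = 0.409). Efnb1 was at 26.8, 25.0 and 35.1 CPM and at 39.98, 24.2 and 36.1 CPM (0.21, edgeR adjusted p = 0.561). Both overlapped between groups. The log2 fold changes of Efna2, Efna4, Efna5 and Efnb3 lay between -0.35 and 0.84 with no call, and Efna3 was not tested.

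**Figure D4:**
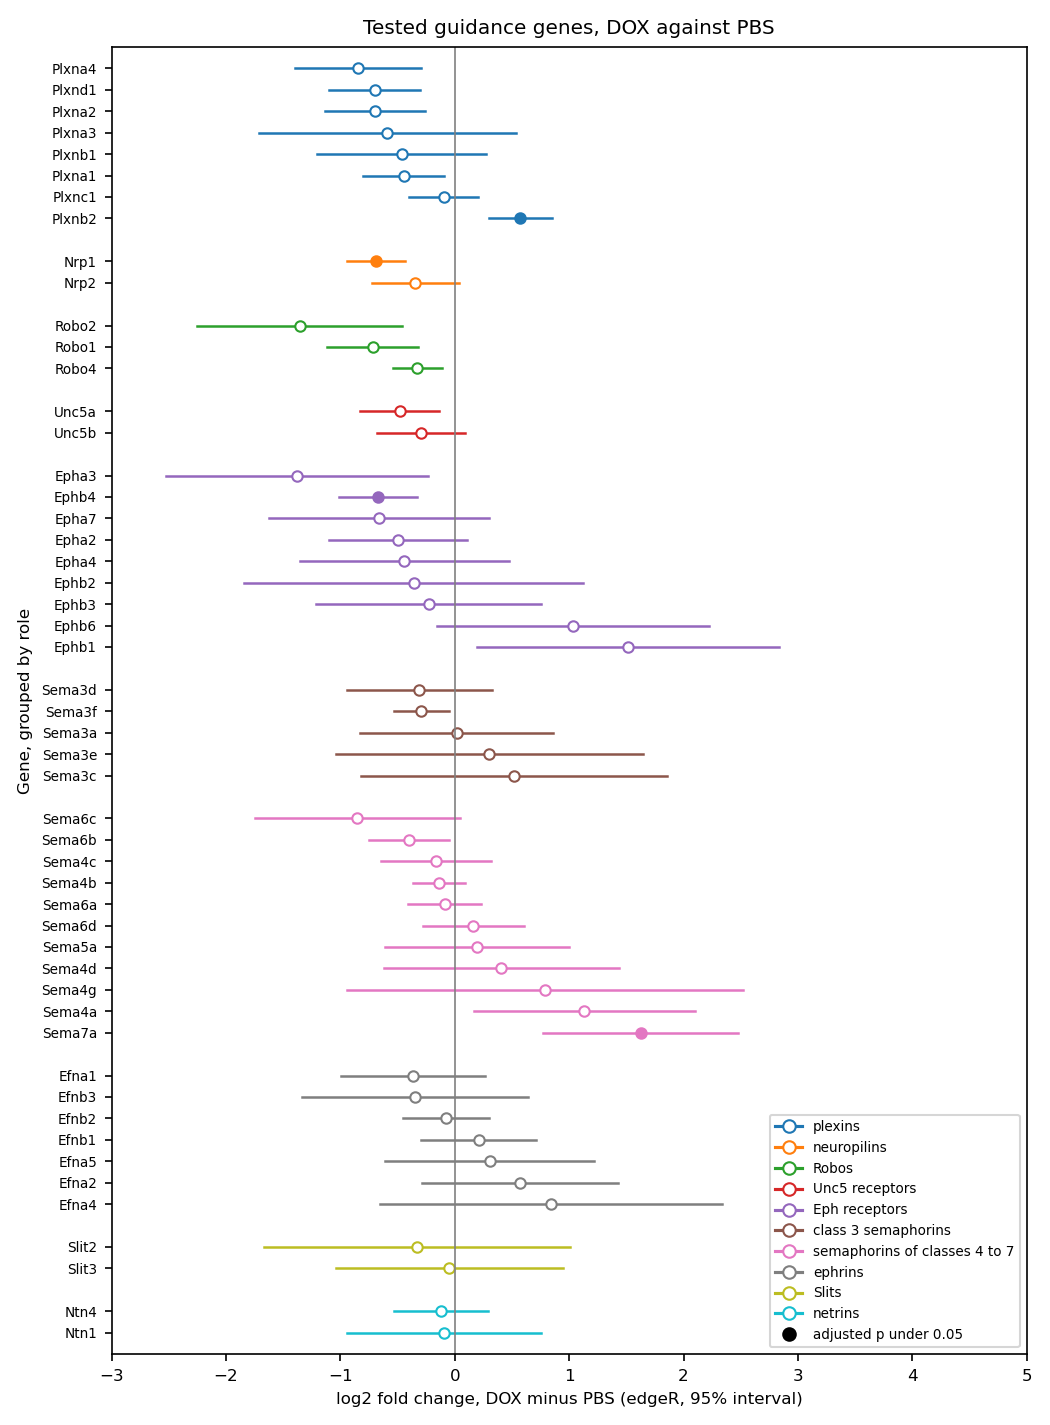
Log2 fold change (DOX minus PBS) with its 95% interval from edgeR for the 51 tested guidance genes, grouped and coloured by role, with filled points for an adjusted p under 0.05. Points of the plexins other than Plxnb2, of the neuropilins, Robos and Unc5 receptors lie below 0, as do those of the 2 Slits and 2 netrins, and those of both semaphorin groups and the ephrins fall on both sides.

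Of 7 class 3 semaphorins, the secreted ones, 5 were tested and none passed. Sema3f, a ligand for neuropilin-2, held 72.6 ± 5.05% of class 3 FPKM in PBS. It was at 89.0, 96.6 and 105 CPM in PBS and at 82.8, 83.3 and 71.4 CPM in DOX, lower in every DOX library (log2 fold change -0.29 with SE 0.10, adjusted p = 0.116 by edgeR). Sema3e, the Plxnd1 ligand, was at 7.13, 19.7 and 14.3 CPM and at 7.08, 12.7 and 30.9 CPM. Its groups overlapped, and the sign of its log2 fold change (0.30) turned without PBS replicate 1 (-0.0090) and without DOX replicate 3 (-0.47). Sema3a, Sema3c and Sema3d had values between -0.31 and 0.52, and Sema3b and Sema3g were not tested.

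Of 13 semaphorins of classes 4 to 7, which sit in the membrane, 11 were tested, and Sema7a alone was called. Sema4b, which had the highest mean FPKM of these over the 6 libraries, was at 76.8, 76.8 and 73.1 CPM in PBS and at 60.9, 73.8 and 71.5 CPM in DOX (log2 fold change -0.14, edgeR adjusted p = 0.388). Sema4d, a ligand of B plexins known from immune cells, was at 146, 56.1 and 42.4 CPM and at 98.6, 96.7 and 129 CPM. PBS replicate 1 exceeded every DOX library and the other 2 PBS libraries lay below them all (0.41, edgeR adjusted p = 0.580). Without that library Sema4d was called higher in DOX, at a log2 fold change of 1.13 (edgeR adjusted p = 0.0340).

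Sema4a, also known from immune cells, followed a like order, at 12.1, 5.47 and 3.94 CPM in PBS and at 12.3, 15.9 and 19.0 CPM in DOX. Its PBS replicate 1 fell just under the lowest DOX library (1.13, edgeR adjusted p = 0.125, DESeq2 adjusted p = 0.0339). Without PBS replicate 1 its log2 fold change was 1.74. Sema6b was lower in every DOX library (-0.40, edgeR adjusted p = 0.131), and Sema4c, Sema4g, Sema5a, Sema6a, Sema6c and Sema6d lay between -0.85 and 0.79 without a call. Sema4f and Sema5b were not tested.

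The Slits and netrins gave no call. Slit3, at 6.18, 12.6 and 18.5 CPM in PBS and at 11.4, 16.7 and 8.0 CPM in DOX, overlapped between groups (log2 fold change -0.05, 95% interval -1.04 to 0.95). Slit2, a ligand of Robo1, was at 0.769, 1.86 and 3.41 CPM and at 1.38, 2.39 and 1.04 CPM (-0.33, edgeR adjusted p = 0.742). Both were highest in PBS replicate 3, and without that library their values were 0.35 and 0.28. Slit1 was not tested.

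Ntn4, a netrin of basement membranes and the main one here (mean 31.6 FPKM), was at 84.7, 63.0 and 88.9 CPM in PBS and at 66.9, 62.9 and 87.9 CPM in DOX (log2 fold change -0.12, 95% interval -0.53 to 0.29). Ntn1, the Unc5 ligand, was at 22.1, 14.3 and 41.1 CPM and at 28.9, 21.6 and 22.2 CPM (-0.09), and 0.41 without PBS replicate 3. Ntn3 and Ntn5 were not tested.

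Beside the ligands and receptors, a list of 94 co-receptors, further ligands and intracellular effectors of these pathways was counted, of which 84 were tested. In edgeR 6 rose and 3 fell, 10.7% of those tested, beside 6.41% of all genes (4.38% higher, 2.04% lower), and the median log2 fold change was 0.03. Vasp, which promotes actin filament growth, was at 188, 205 and 181 CPM in PBS and at 390.1, 317 and 311 CPM in DOX (log2 fold change 0.83, edgeR adjusted p = 0.0240). Sh3bp1, a GTPase-activating protein for Rac, rose 2.49-fold (1.32, edgeR adjusted p = 0.0215), and Pak1, a kinase bound by Rac and Cdc42, rose 2.34-fold (1.23, edgeR adjusted p = 0.0296). Flrt3, a membrane protein that binds Unc5 receptors and Robo1, rose 2.48-fold (1.31, edgeR adjusted p = 0.0314). Cd72, a receptor for Sema4d known from B cells, and Ablim1, an actin-binding LIM protein, rose as well (log2 fold changes 1.15 and 1.90, edgeR adjusted p = 0.0455 for both).

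The 3 that fell were Ptprb, Trio and Dock1. Ptprb, the receptor phosphatase of vascular endothelium, was at 224, 275 and 269 CPM in PBS and at 145, 150.2 and 158 CPM in DOX (log2 fold change -0.76, edgeR adjusted p = 0.0240). Trio and Dock1, which activate Rac downstream of netrin receptors, fell 1.55-fold and 1.72-fold (-0.63 and -0.79, edgeR adjusted p = 0.0290 and 0.0296). In each of the 3 the groups did not overlap. Without PBS replicate 2 or PBS replicate 3 no gene of the list passed edgeR (18 at an unadjusted p under 0.05 each time), and without DOX replicate 1 a single gene did. Over all genes those fits called, in the same order, 0, 0 and 85.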

How the data were processed

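RNA-seq of 6 libraries (3 PBS, 3 DOX) was used. Total RNA went into SMARTER mRNA libraries, per the labels' protocols. Aligner, counting tool and use of strand: not given in the sources used here. Per the submitters' processing notes, builds GRCm38, mm10 and hg38 were named without a role. Raw counts deposited by the authors cover 22905 gene symbols, 1 column per library. The authors also deposited FPKM values, which matched the counts divided by a fixed length per gene and by library total (tolerance 0.001, 100% of genes), so both are 1 measurement. No column was left unmatched (0). Replicates differed beyond sampling noise (chi-square per degree of freedom 38.6 to 82.1 over 6 pairs).

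Counts were tested with edgeR 4.0.16 (quasi-likelihood, TMM, filterByExpr with minimum count 10 and total 15, R 4.3.3), two-sided, adjusted by Benjamini-Hochberg over 14439 genes, threshold 0.05. The SE was derived from the F statistic, and intervals are 95%. A count of 3, the limit that a count of 0 allows, was 0.0758 to 0.0878 CPM (counting error only). DESeq2 1.42.0, limma 3.58.1 (voom, and log2 FPKM with pseudocounts of 1 and 0.1), other scalings, filters, a replicate block and leaving out each library were alternatives. Scripts were tested on simulated data. Deviations of same-numbered libraries correlated over 0.1 in 1 of 3 pairs, so numbers were not taken as pairs.

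Named genes were those called, those with an adjusted p of 0.05 to 0.1 or called by another tool, the 2 most abundant of each family, and the called partners with the lowest p; Tek, Cd72, Ablim1, Plxna4os1, Ntng2, Efnb2, the cell markers named singly and members with ranges alone were named after their values were seen. Members, gene lists and tests were chosen with earlier results of these data known. The partner genes Dcc and Hfe2 were not analysed here.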

Additional observations from a re-analysis of the deposited data

How the results depend on the processing

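Against 4 of 51 guidance genes called by edgeR, 9 of 51 were called with library totals alone (1 higher, 8 lower) and 14 of 49 by DESeq2. Limma on log2 FPKM with a pseudocount of 1 or of 0.1 called 11 of the 36 it tested. Limma on FPKM without a filter called 0 of 65 (21 at an unadjusted p under 0.05, beside 5139 of 22905 genes). Over all genes the count of 926 became 2692 by DESeq2 and 30 by limma on unfiltered FPKM, and for the partner list 9 became 18 and 0. On filtered FPKM limma called 1179 and 1121 of 10641 genes with pseudocounts of 1 and 0.1. Leaving out 1 library gave 0 to 6 guidance genes, 0 to 1090 of all genes and 0 to 8 partner genes; the cause was not tested. Over all genes, library totals gave 611 higher and 730 lower, against 632 and 294 by TMM. The 3 fits with no guidance call had 14 to 16 such genes at an unadjusted p under 0.05. RLE and upper-quartile factors, both other count filters, limma-voom and the robust fit called the same 4 guidance genes, with at most 2 more.

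The numbers were not taken as pairs, since not every same-numbered pair correlated over 0.1: deviations of same-numbered libraries correlated at 0.0949, -0.106 and 0.232. With a replicate block 3 guidance genes were called (Ephb4, Nrp1 and Robo1, all lower), 781 of all genes and 6 partner genes.

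Among the genes named by rule, the sign turned for 4, none of them called. Ntn1 was 0.025 by limma-voom and 0.035 with the block, Slit3 0.014 and 0.036. Leaving out 1 library, Ntn1 ran from -0.38 to 0.41, Slit3 from -0.37 to 0.35 (0.18 without DOX replicate 3), Slit2 from -0.74 to 0.28 and Sema3e from -0.47 to 0.68 (-0.0090 without PBS replicate 1). Over all 51 tested guidance genes 37 kept their sign in every fit without 1 library, 26 of them negative, and 14 did not. By annotation, exons of Ephb4 overlap those of Zan over 0.711% of their bases, and those of Plxnb1 overlap Gm7628 over 2.68%.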

Other observations

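A few gene symbols lie just outside the symbol rule. Plxna4os1, named as an opposite-strand transcript of Plxna4, was at 0.530, 0.471 and 0.455 CPM in PBS and at 2.02, 1.21 and 2.05 CPM in DOX, with no overlap (log2 fold change 1.85, edgeR adjusted p = 0.0307). Plxna4 itself had a negative value (-0.85, edgeR adjusted p = 0.0742). By the GENCODE M21 annotation, exons of Plxna4 share 0 bases with exons of any other counted gene. Whether counting used the strand is not known, so reads of the pair cannot be told apart wherever the 2 do overlap. Ntng2, netrin-G2, a membrane-anchored relative of the netrins, was at 6.10, 4.03 and 5.20 CPM and at 7.96, 9.77 and 6.22 CPM (0.64, edgeR adjusted p = 0.133).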
